A study of Homo sapiens with 12 samples.

Results

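MX1 and MX2 are a pair of interferon-induced genes that lie side by side on chromosome 21. They were taken as the rows of the gene table with these symbols, 2 of 60099 genes, together with their 31 of 201521 transcripts, 18 for MX1 and 13 for MX2. RNA of Cal27 and HN30 cells, established lines of head and neck squamous cell carcinoma (HNSCC), was sequenced without interferon alpha (IFNα) and after 24 h with IFNα at a low dose of 20 ng/ml or a high dose of 200 ng/ml. The 12 samples carry the letters A to F with 2 replicates each. A and D were controls, B and E had the low dose, and C and F had the high dose. The letters A-C and D-F form 2 line sets, and the labels do not say which set is which line. The labels name no genetic change in any group, and each set is a single tumor-derived line.

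Both genes encode dynamin-like GTPases that assemble into oligomers and block viruses inside the cell. MX1 (also called MxA) is a cytoplasmic protein known for its action against influenza virus, and MX2 (MxB) sits at nuclear pores and is known for its action on lentiviruses and herpesviruses. Type I interferon induces both through its receptor, the kinases JAK1 and TYK2, and a transcription factor complex that contains STAT2 and IRF9 and binds interferon-stimulated response elements, which are built from repeated GAAA blocks. The comparisons below give the level of each gene without IFNα, its response, its dependence on dose, and where the neighbours differ.

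MX2 (ENSG00000183486) runs on the forward strand of GRCh38 from chr21:41361943-41409390, and MX1 (ENSG00000157601) follows on the same strand at chr21:41420304-41459214. The gap between them is 10913 bases. The coding sequence of MX2-201 (14 exons) is 2145 bases and that of MX1-202 (17 exons) is 1986 bases. Over 1968 aligned coding bases the pair was 71.4% identical. Across all annotated transcripts, only 38 words of 31 bases occurred in both genes, out of 8794 in MX1 and 13180 in MX2.

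The RefSeq promoter table (GRCh38.p14) holds 3 windows for MX1, each from 250 bases before to 50 bases after an annotated start, and the names of both genes were looked up in it (1 of 2 matched). They are shown because most full-length MX1 transcripts start at or near these sites. Capitals mark GAAANGAAA and GAAANNGAAA on either strand (TTTCNTTTC and TTTCNNTTTC when read on the reverse strand).

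Upstream start, chr21:41420308-41420607: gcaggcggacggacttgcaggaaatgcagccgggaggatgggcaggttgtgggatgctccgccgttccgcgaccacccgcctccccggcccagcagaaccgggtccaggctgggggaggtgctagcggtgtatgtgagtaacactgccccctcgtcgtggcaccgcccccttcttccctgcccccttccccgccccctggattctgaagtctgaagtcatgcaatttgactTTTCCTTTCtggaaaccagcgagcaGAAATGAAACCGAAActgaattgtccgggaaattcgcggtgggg
Central start, chr21:41425989-41426288: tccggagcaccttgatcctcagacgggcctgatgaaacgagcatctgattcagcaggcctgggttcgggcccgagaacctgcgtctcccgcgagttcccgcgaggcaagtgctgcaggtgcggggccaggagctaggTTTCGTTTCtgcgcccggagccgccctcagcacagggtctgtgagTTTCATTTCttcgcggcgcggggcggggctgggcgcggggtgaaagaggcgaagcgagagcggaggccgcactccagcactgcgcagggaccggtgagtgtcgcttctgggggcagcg
Downstream start, chr21:41431800-41432099: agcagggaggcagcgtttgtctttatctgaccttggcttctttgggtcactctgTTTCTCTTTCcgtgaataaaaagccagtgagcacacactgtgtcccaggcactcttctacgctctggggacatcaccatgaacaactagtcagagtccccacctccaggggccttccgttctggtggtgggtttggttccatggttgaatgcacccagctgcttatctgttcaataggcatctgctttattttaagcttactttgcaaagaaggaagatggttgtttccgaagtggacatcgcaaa

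The upstream window held 3 matches, of which the forward pair overlapped by several letters (GAAATGAAA and GAAACCGAAA). The central window held 2 matches of GAAANGAAA on the reverse strand, at positions -113 and -68 from the start, and the downstream window held 1 match of GAAANNGAAA on the reverse strand, at position -196. Of all 35116 promoter windows in the table, 3.12% held GAAANGAAA, 3.57% held GAAANNGAAA and 6.40% held at least one of them. These are matches of letters, not measured binding.

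The samples held 10517448 to 16056734 estimated counts each. Replicates of a letter differed by 14.4 to 19.8 times the variance that sampling alone gives, so no pair was a repeated deposit. Nothing in the labels says that they came from separate cultures, so p-values measure the spread between these samples, which may be technical. All 8 squamous markers looked at passed the filter on low counts, with KRT5 at 237 to 1248 TPM, although KRT14 was at 41.9 to 49.2 TPM in A-C and at 0 to 0.254 TPM in D-F. The leukocyte genes PTPRC and CD3E stayed at or below 0.0425 TPM and CD14 at or below 2.29 TPM. Of the endothelial genes PECAM1 and VWF stayed at or below 0.576 TPM, while CDH5 was at 15.2 to 21.7 TPM in A-C and at 0 to 0.156 TPM in D-F, and of the fibroblast genes COL1A1 reached 13.0 TPM, COL1A2 1.73 TPM, COL3A1 0.154 TPM and DCN 0.121 TPM.

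MX1 was detected in every untreated sample. As TPM, a level per transcript scaled for length and depth, its level in the controls was 66.2 and 71.2 in A and 29.9 and 31.1 in D. With 20 ng/ml IFNα it was 815 and 833 in B and 891 and 1034 in E. With 200 ng/ml it was 1137 and 1172 in C and 1192 and 1134 in F. Treated and untreated samples did not overlap, and the lowest treated sample lay far above the highest control. How many of all genes separate treated from untreated samples in this way was not determined. In RNA of whole cultures, more responding cells and more RNA per cell cannot be told apart. The mean over the 4 samples of a dose was 49.6 ± 22.2 TPM (SD, n = 4) in the controls, 893 ± 99.1 TPM at 20 ng/ml and 1159 ± 27.9 TPM at 200 ng/ml.

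MX2 was the less abundant neighbour in all 12 samples. Its control level was 6.97 and 10.3 TPM in A and 3.02 and 1.56 TPM in D. With 20 ng/ml it was 223 and 307 TPM in B and 267 and 192 TPM in E, and with 200 ng/ml 345 and 583 TPM in C and 378 and 318 TPM in F. Treated and untreated samples again did not overlap, a separation whose share over all genes was not determined. The mean was 5.46 ± 3.94 TPM (SD, n = 4) in the controls, 247 ± 50.6 TPM at 20 ng/ml and 406 ± 121 TPM at 200 ng/ml. The D controls rested on 59 and 43 estimated counts, while MX1 had 560 and 583 in the same libraries.

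**Figure D1:**
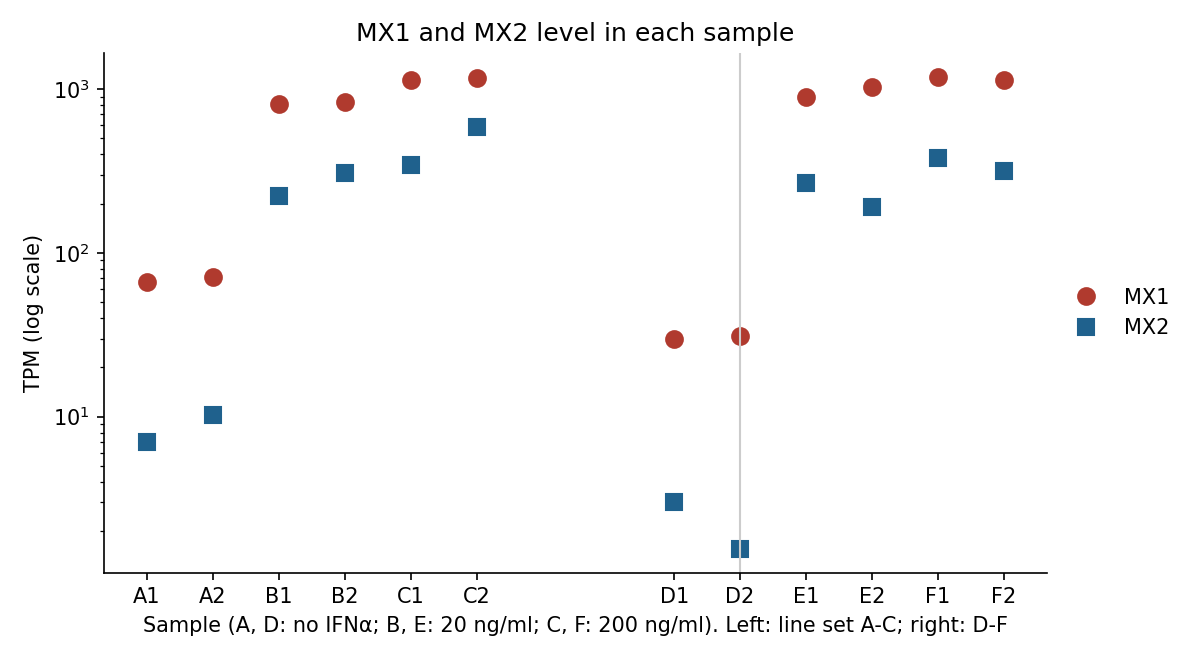
TPM of MX1 (red circles) and MX2 (blue squares) in each of the 12 samples on a log axis, with line set A-C on the left and D-F on the right. MX1 lies above MX2 in every sample, and both rise from the controls (MX1 29.9 to 71.2 TPM, MX2 1.56 to 10.3 TPM) to the treated samples (MX1 815 to 1192 TPM, MX2 192 to 583 TPM).

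By rank, MX1 moved from place 1959 to 5381 among the detected genes of a control sample to place 46 to 87 in the treated samples. MX2 moved from place 9302 to 17543 to place 132 to 574. A control sample held 24732 to 25877 detected genes.

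Both genes responded strongly to IFNα. At 20 ng/ml MX1 rose 18.6-fold, or by 4.22 on the log2 scale (SE 0.06), with an adjusted p-value of 8.45e-10 from edgeR's quasi-likelihood test. At 200 ng/ml it rose by 4.57 (SE 0.06, 23.8-fold, adjusted p = 4.57e-10 from edgeR). MX2 rose by 5.68 (SE 0.25, 51.4-fold, adjusted p = 6.27e-07 from edgeR) at 20 ng/ml and by 6.40 (SE 0.26, 84.6-fold, adjusted p = 2.43e-07 from edgeR) at 200 ng/ml. A gene is called here when it changed at least 2-fold with an adjusted p of at most 0.05. Both of the 2 genes were called at both doses, where 1.15% of the 19944 genes tested were called at 20 ng/ml (0.963% higher) and 2.14% at 200 ng/ml (1.58% higher). Ordered by log2 fold change, MX1 stood at place 36 and MX2 at place 8 at 20 ng/ml, and at places 38 and 5 at 200 ng/ml.

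The ratio of the neighbours fell with IFNα. MX1 TPM divided by MX2 TPM was 9.50 and 6.93 in A and 9.89 and 19.98 in D. With 20 ng/ml it was 3.66 and 2.71 in B and 3.34 and 5.39 in E, and with 200 ng/ml 3.30 and 2.01 in C and 3.15 and 3.56 in F. All 8 treated samples lay below all 4 controls. The log2 ratio changed by -1.55 at 20 ng/ml and by -1.86 at 200 ng/ml (p = 0.0556 each by an exact two-sided permutation that exchanged doses inside each line set, which is the smallest p that the 36 arrangements allow). MX2 thus gained more than MX1 relative to its control level in these samples, while MX1 had the higher level in each of them. This permutation test cannot reach a p of 0.05. Within line sets the change at 200 ng/ml was -1.66 in A-C and -2.07 in D-F. Between 200 and 20 ng/ml the log2 ratio differed by -0.32 (exact permutation p = 0.278), with overlapping samples. Leaving out 1 library moved this value to between -0.14 (without C replicate 2 or without E replicate 2) and -0.49 (without C replicate 1 or without E replicate 1), and to -0.21 without B replicate 1.

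**Figure D2:**
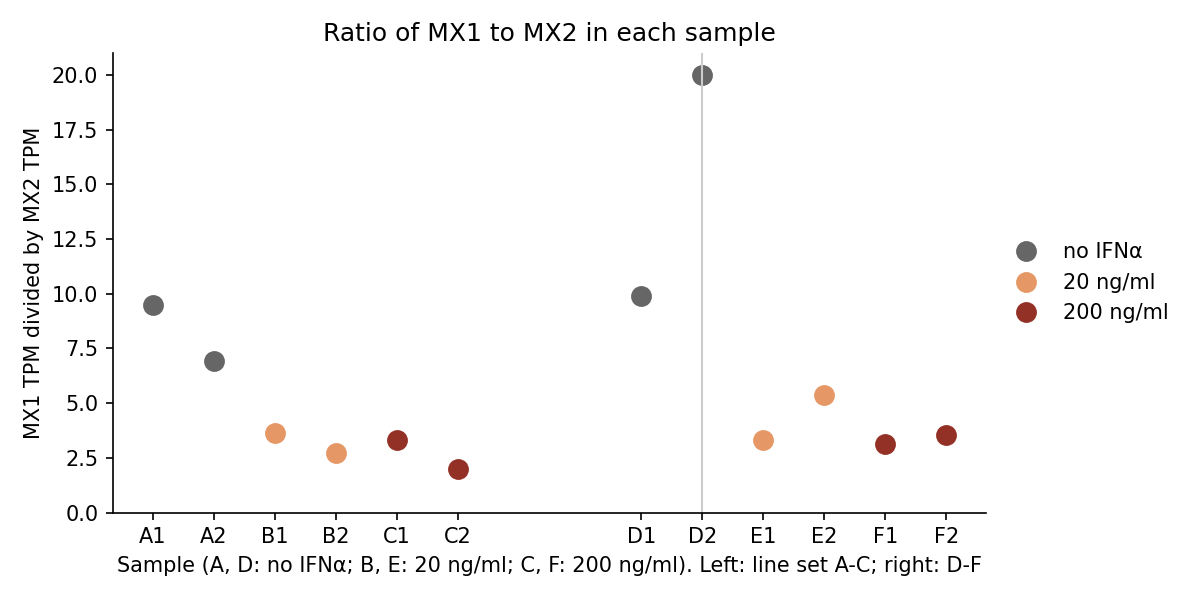
MX1 TPM divided by MX2 TPM in each sample, with line set A-C on the left, D-F on the right and color by dose. The controls lie between 6.93 and 19.98 and the treated samples between 2.01 and 5.39.

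The low dose already brought most of the response. In A-C the mean MX1 level at 20 ng/ml was 71.4% of that at 200 ng/ml, and in D-F it was 82.7%. For MX2 these shares were 57.1% in A-C and 65.8% in D-F. In both genes the 4 samples at 200 ng/ml lay above the 4 at 20 ng/ml without overlap (MX1 1134 to 1192 against 815 to 1034 TPM, MX2 318 to 583 against 192 to 307 TPM). The share of all genes with such a separation was not determined. The difference between doses was 0.36 on the log2 scale for MX1 (SE 0.05, adjusted p = 0.0535 from edgeR) and 0.72 for MX2 (SE 0.20, adjusted p = 0.308 from edgeR), so neither passed the threshold, which 0.135% of all genes did. The MX1 difference passed with DESeq2 (adjusted p = 2.83e-05), with no filter on low counts (adjusted p = 0.0291 from edgeR) and without C replicate 1 (adjusted p = 0.0271 from edgeR), and the MX2 difference passed with DESeq2 (adjusted p = 0.0202).

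Without IFNα both genes were higher in line set A-C. The difference of D-F against A-C in controls was -1.43 on the log2 scale for MX1 (SE 0.08, adjusted p = 1.01e-06 from edgeR) and -2.17 for MX2 (SE 0.36, adjusted p = 8.88e-04 from edgeR). The lines differ widely, and 26.6% of all genes were called in this comparison. In the treated samples the mean MX1 level was 824 TPM in B and 962 TPM in E at 20 ng/ml, where the replicates did not overlap, and 1154 TPM in C and 1163 TPM in F at 200 ng/ml. The mean MX2 level was 265 TPM in B and 229 TPM in E, and 464 TPM in C and 348 TPM in F, with overlapping replicates at either dose.

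The response also differed by line set. MX1 rose by 3.49 (SE 0.08) in A-C and by 4.94 (SE 0.09) in D-F at 20 ng/ml on the log2 scale, and by 3.93 (SE 0.09) and 5.21 (SE 0.09) at 200 ng/ml. The larger response of MX1 in D-F was called by the test of the difference itself, with 1.45 (SE 0.11, adjusted p = 9.11e-04 from edgeR) at 20 ng/ml and 1.28 (SE 0.11, adjusted p = 0.00232 from edgeR) at 200 ng/ml. Of all genes, 0.231% were called for this difference at 20 ng/ml and 0.998% at 200 ng/ml. MX2 rose by 4.84 (SE 0.33) in A-C and by 6.53 (SE 0.38) in D-F at 20 ng/ml, and by 5.65 (SE 0.35) and 7.15 (SE 0.39) at 200 ng/ml. The difference for MX2 was of like size, 1.69 (SE 0.46, adjusted p = 0.204 from edgeR) at 20 ng/ml and 1.497 (SE 0.46, adjusted p = 0.132 from edgeR) at 200 ng/ml, but did not pass, and it passed with DESeq2 (adjusted p = 0.00557 and 0.00944). All of these contrasts share the same 2 controls per line set.

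**Figure D3:**
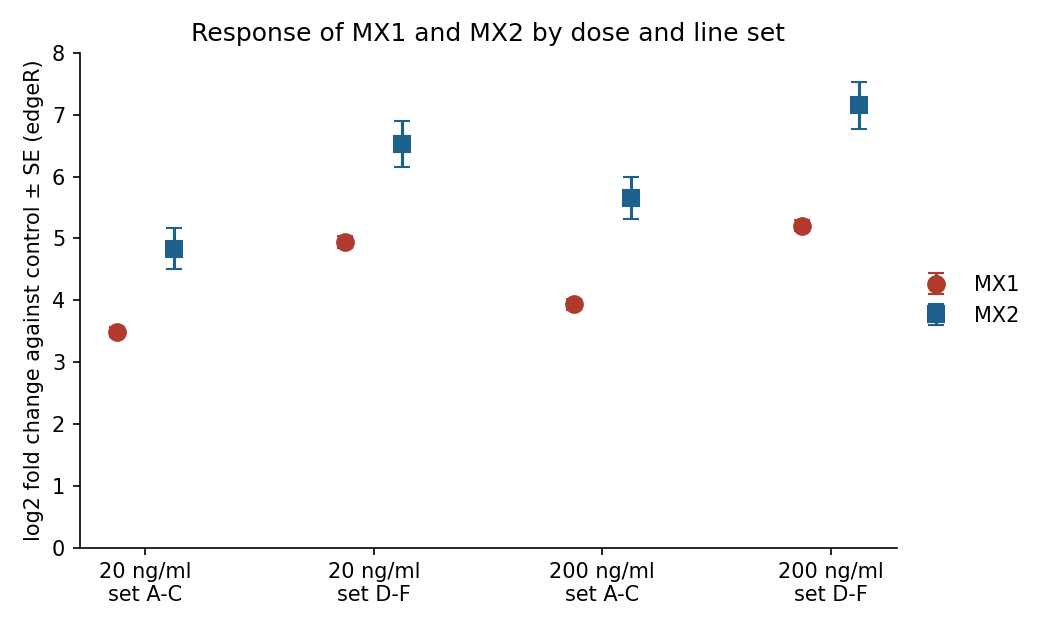
Log2 fold change against the controls of the same line set (edgeR, bars ± SE) for MX1 (circles) and MX2 (squares) by dose and line set, from 2 samples per group. MX2 lies above MX1 in each column, and both lie higher in D-F (MX1 4.94 and 5.21, MX2 6.53 and 7.15) than in A-C (MX1 3.49 and 3.93, MX2 4.84 and 5.65).

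MX1 and MX2 are each read out through many annotated transcripts, whose values are estimates from shared exons. The filter on low counts kept 14 of 18 MX1 transcripts and 11 of 13 MX2 transcripts. At 200 ng/ml, 8 MX1 and 7 MX2 transcripts were called, all higher, where 0.494% of 75876 transcripts were called and 0.343% were called higher. At 20 ng/ml, 8 and 5 were called, where 0.303% of all were called and 0.24% were called higher. The other transcripts that passed the filter had log2 fold changes of 0 or above without passing the test. Without A replicate 1, the MX1 transcripts called fell to 4 at 20 ng/ml and 5 at 200 ng/ml, and the count was 5 at either dose without A replicate 2 and at 20 ng/ml without B replicate 1. The MX2 transcripts called at 200 ng/ml fell to 4 without D replicate 2 or without F replicate 1. Transcripts of one gene share reads and are not replicates. Some called transcripts, such as MX1-208, MX1-211, MX1-217, MX2-203, MX2-205, MX2-206 and MX2-210, passed the filter only through treated samples. Such transcripts could only be called higher.

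The 5 MX1 transcripts with a complete coding sequence made up 65.4% to 72.9% of MX1 TPM in the 12 samples. Of these, MX1-202 (ENST00000398598) rose by 4.43 on the log2 scale at 200 ng/ml (SE 0.40, adjusted p = 0.00391 from edgeR), and MX1-218, which starts at the downstream site, by 4.91 (SE 0.42, adjusted p = 0.00334 from edgeR). MX1-210, which starts at the central site, was called as well (adjusted p = 0.0151 from edgeR). Within line sets at 200 ng/ml, MX1-210 was called in D-F (adjusted p = 0.0297 from edgeR), from controls of 3 and 0 estimated counts. In A-C it was not called (log2 fold change 3.25, SE 1.03, adjusted p = 0.444 from edgeR). MX1-201 and MX1-203, the others of this class, had log2 fold changes of 4.39 (adjusted p = 0.0915 from edgeR) and 4.02 (adjusted p = 0.302 from edgeR). MX1-208, an incomplete coding model of 281 bases, was called on 3, 6, 0 and 0 estimated counts in the controls (A1, A2, D1 and D2) and 25 to 45 at 200 ng/ml. In A-C alone MX1-208 was not called at 200 ng/ml (adjusted p = 0.250 from edgeR).

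MX1-210 (ENST00000455164, chr21:41426031-41459213) differed most between the untreated line sets. It had 26.1 and 37.3 TPM in A, and 0.0900 and 0 TPM in D. That was 39.4% and 52.4% of MX1 TPM in A against 0.301% and 0% in D. The difference was called in the controls (adjusted p = 0.0161 from edgeR), where 3.63% of all transcripts were called. Summed over replicates it had 1616 estimated counts in A and 3 in D, a ratio of 552 after scaling for depth, with an exact 95% interval from 188 to 2677 that covers counting error only. MX1-202 (chr21:41426167-41459214), which also starts at the central site and has the same coding length, had 4.49 and 5.70 TPM in A and 14.7 and 7.10 TPM in D (adjusted p = 0.373 from edgeR). After IFNα MX1-210 was present in both sets, with 101, 259, 129 and 511 TPM in B1, B2, C1 and C2, and 301, 91.4, 362 and 337 TPM in E1, E2, F1 and F2. The fitted rise was larger in D-F by 8.92 (SE 1.63, adjusted p = 0.281 from edgeR) at 20 ng/ml and by 8.98 (SE 1.63, adjusted p = 0.194 from edgeR) at 200 ng/ml on the log2 scale, against D controls of 3 counts in all, and did not pass the test of the difference.

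The split between MX1 transcripts varied more between replicates than the gene did. Among MX1 transcripts with a mean of at least 20 TPM in a treated letter, the higher replicate exceeded the lower by a median of 1.31 times over 38 such pairs, and by up to 3.96 times for MX1-210 in C. The MX1 gene differed by at most 1.16 times between treated replicates. Transcripts that start at the central site made up 32.8% to 77.3% of MX1 TPM, those that start at the downstream site 8.08% to 48.2%, and those at the upstream site 0.310% to 7.31%, and the ranges of the 3 doses overlapped in each. The central start therefore carried the largest share in 11 of 12 samples, and in D2 the downstream start did.

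Retained-intron transcripts keep part of an intron and are annotated as noncoding. All 4 MX1 transcripts of this kind that passed the filter were called at 200 ng/ml on the average over line sets, where 0.494% of all transcripts were called (0.343% higher). MX1-215 rose from 6.91, 5.42, 3.85 and 2.78 TPM in A1, A2, D1 and D2 to 191, 158, 162 and 154 TPM in C1, C2, F1 and F2, and was the most abundant of them. MX1-213 rose by 4.21 (SE 0.21), MX1-211 by 4.35 (SE 0.46) and MX1-217 by 5.49 (SE 0.58) on the log2 scale. MX1-211 and MX1-217 had 7 estimated counts or fewer in each control. Both passed the filter only through treated samples and could only be called higher. Within line sets at 200 ng/ml, MX1-217 was called in neither (adjusted p = 0.0593 in A-C and 0.0587 in D-F from edgeR). MX1-211 was not called in A-C (adjusted p = 0.0925 from edgeR). In MX2, 3 of 5 were called, namely MX2-207 with 5.83 (SE 0.46), MX2-209 with 5.93 (SE 0.38) and MX2-210 with 4.97 (SE 0.48). In A-C alone MX2-210 was not called (adjusted p = 0.0925 from edgeR). With 11 estimated counts or fewer in each control, MX2-210 also passed the filter only through treated samples and could only be called higher. MX2-202 and MX2-212 had log2 fold changes of 7.92 (SE 1.35) and 4.02 (SE 1.36) and did not pass.

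The sequences below show where 4 of these transcripts run on from an exon into the intron that the coding transcript removes, with the GT that opens the intron in capitals (GRCh38, forward strand, from GENCODE release 29 transcripts).
MX1-213, chr21:41427852-41427881: agccaccattccaagGTaaggcagaaatga
MX1-215, chr21:41449281-41449310: tacacaccgtgacggGTgagtgctcagttt
MX2-207, chr21:41403329-41403358: aaccaaactgttcagGTaagcacccagagt
MX2-210, chr21:41399323-41399352: ctaatacccaaaaagGTaagttctgggcag

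MX1-213 keeps 2055 bases of intron 3 of MX1-202, which is 77.1% of it, and MX1-215 keeps 490 bases (26.2%) of intron 14. MX2-207 keeps 1530 bases (45.0%) of intron 12 of MX2-201, and MX2-210 keeps 429 bases (16.3%) of intron 10. MX1-213 also begins inside intron 1 of MX1-202 and holds 936 bases (99.4%) of it, and MX2-207 begins inside intron 10 of MX2-201 with 1105 bases (42.0%). MX1-211, MX1-217 and MX2-209 begin inside an intron and were not found to run on from an exon into one.

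As a share of MX1 TPM, retained-intron transcripts made up 19.0% and 17.1% in A, 22.9% and 24.0% in B, and 27.6% and 22.0% in C. In D they made up 20.9% and 24.5%, in E 22.8% and 27.5%, and in F 24.7% and 25.1%. The share at 200 ng/ml was 4.43 percentage points above the controls (exact permutation p = 0.0556, the smallest possible), with no overlap inside either line set, and the change was 6.68 points in A-C and 2.19 points in D-F. Computed from estimated counts, which are not divided by length, it was 0.732 points (exact permutation p = 0.5). In MX2 the share was 40.8% and 30.3% in A, 27.6% and 25.5% in B, and 20.3% and 16.7% in C. In D it was 48.0% and 26.3%, in E 32.9% and 27.3%, and in F 28.5% and 26.4%. It was 13.4 points lower at 200 ng/ml than in the controls (change of -13.4, exact permutation p = 0.167), and the groups overlapped in D-F. The change was -7.95 points without D replicate 1 (exact permutation p = 0.278) and -18.8 points without D replicate 2 (exact permutation p = 0.0556).

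**Figure D4:**
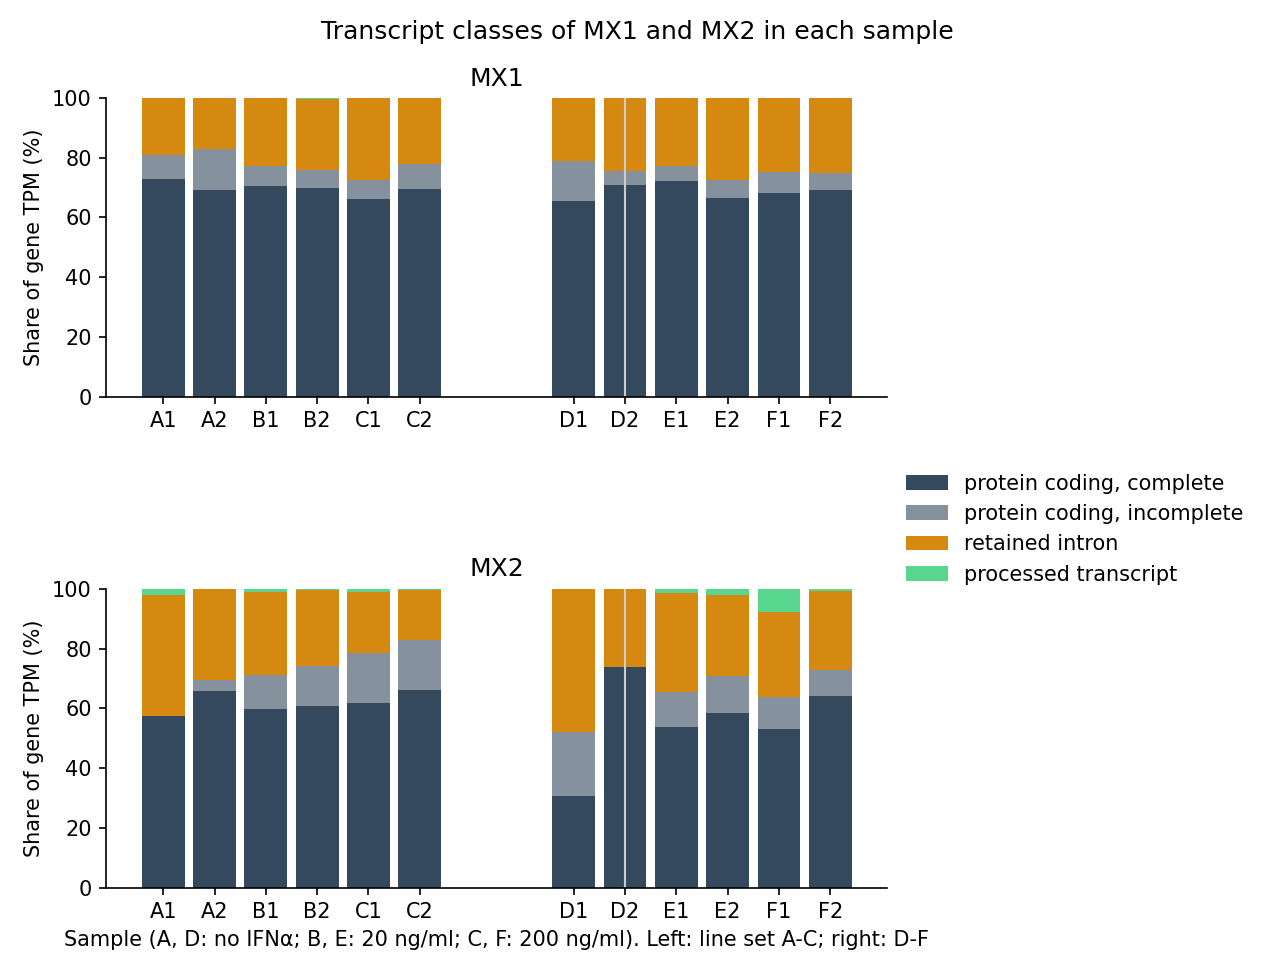
Stacked bars of the share of summed TPM, in percent, held by each annotated transcript class of MX1 (top) and MX2 (bottom) in each sample. In MX1 complete coding transcripts hold 65.4% to 72.9% throughout, and in MX2 the retained-intron share runs from 16.7% in C2 to 48.0% in D1.

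MX2 has 1 annotated transcript with a complete coding sequence. MX2-201 (ENST00000330714) held 30.8% to 73.7% of MX2 TPM, with the lowest and highest share in the D controls, where MX2 had the fewest counts. It had 3.99, 6.76, 0.930 and 1.15 TPM in A1, A2, D1 and D2, and 214, 387, 201 and 204 TPM in C1, C2, F1 and F2, with C2 well above the others. It rose by 6.58 on the log2 scale at 200 ng/ml (SE 0.31, adjusted p = 1.54e-04 from edgeR) and was lower in D than in A (-2.47 on the log2 scale, SE 0.37, adjusted p = 0.0140 from edgeR). The incomplete coding models MX2-203, MX2-205 and MX2-206 were called at 200 ng/ml from controls at 4 estimated counts or fewer. MX2-206, for example, had 1 count over all 4 controls and 290 over the 4 samples at 200 ng/ml. That was a ratio of 368 after scaling for depth, with an exact 95% interval from 65.6 to 14604 that covers counting error only. All of these incomplete models passed the filter through the treated samples, so a fall could not have been called. None of them was called at 200 ng/ml in either line set alone.

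Of 41 other gene rows within 1 Mb of the pair, 17 had no count in any sample and 12 passed the filter. None of the 12 was called at either dose by edgeR or by DESeq2. Of all genes, edgeR called 1.15% at 20 ng/ml and 2.14% at 200 ng/ml. Among the 12 neighbours, 1 at 20 ng/ml and 2 at 200 ng/ml had an unadjusted p under 0.05. FAM3B, the next annotated gene before MX2, had no count in any sample. BACE2, an aspartic protease gene and the nearest tested gene on that side, stood at -0.41 on the log2 scale (SE 0.08, adjusted p = 0.0270 from edgeR) at 20 ng/ml and -0.23 (SE 0.08, adjusted p = 0.134 from edgeR) at 200 ng/ml. TMPRSS2, a serine protease gene beyond MX1, had -0.13 (SE 0.26, adjusted p = 0.895 from edgeR) and -0.33 (SE 0.26, adjusted p = 0.509 from edgeR), on 28 to 83 estimated counts. RIPK4, a kinase gene, fell by 0.32 on the log2 scale at 200 ng/ml (SE 0.06, adjusted p = 0.0100 from edgeR). BACE2 at 20 ng/ml and RIPK4 at 200 ng/ml were each the only 1 of the 12 with an adjusted p of at most 0.05. Of all genes, 3.93% reached that at 20 ng/ml and 9.55% at 200 ng/ml. The median over the 12 was 0.01 at 200 ng/ml and that over all genes was -0.01. AP001610.1, annotated on the reverse strand inside MX1, had no count in any sample. Whether the counting used strand is not stated, so reads of this antisense RNA and of MX1 cannot be told apart.

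**Figure D5:**
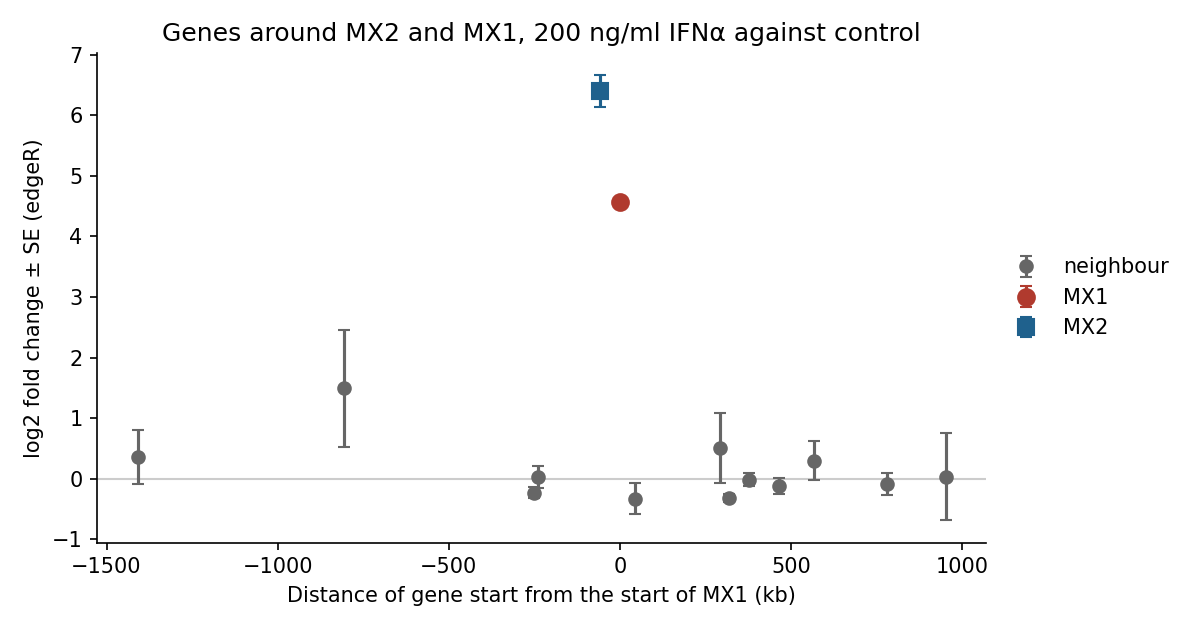
Log2 fold change (edgeR, bars ± SE) at 200 ng/ml against control for MX1, MX2 and the 12 tested neighbours, by distance of the gene start from the start of MX1 in kb. MX2 (6.40) and MX1 (4.57) stand above the neighbours, whose values lie between -0.33 and 1.49.

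Among the other members of the dynamin superfamily, of which 16 of 17 passed the filter, the called genes were all guanylate-binding proteins (GBPs), large GTPases that act on intracellular pathogens. At 20 ng/ml GBP1, GBP4 and GBP5 were called (3 of 16, where 1.15% of all genes were called), and at 200 ng/ml also GBP3 and GBP6 (5 of 16, where 2.14% were). At 200 ng/ml GBP5 rose by 4.02 (SE 0.33), GBP4 by 2.68 (SE 0.09), GBP1 by 2.31 (SE 0.09) and GBP3 by 1.08 (SE 0.11) on the log2 scale. GBP6, which lies outside the 4 largest, had 1.00 (SE 0.14). Without C replicate 2 the called genes at 200 ng/ml numbered 3. The members that serve membrane fission and fusion (DNM1, DNM2, DNM3, DNM1L, OPA1, MFN1, MFN2, ATL1, ATL2) did not pass at either dose (an adjusted p of at most 0.05, which 3.93% of all genes reached at 20 ng/ml and 9.55% at 200 ng/ml), and ATL3 fell by 0.31 and 0.30 on the log2 scale at the low and the high dose (adjusted p = 0.0232 and 0.0158 from edgeR), below 2-fold. The median of the 16 was 0.11 at 200 ng/ml, beside -0.01 over all genes.

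Of the 9 type I interferon signalling genes described here, 3 were called at each dose, all higher. Over all genes, 1.15% were called at 20 ng/ml (0.963% higher) and 2.14% at 200 ng/ml (1.58% higher). USP18, a protease that removes ISG15 and restrains the receptor, rose by 4.16 (SE 0.11) at 200 ng/ml, IRF9 by 2.69 (SE 0.13) and STAT2 by 1.80 (SE 0.08) on the log2 scale. IFNAR1, IFNAR2, JAK1, TYK2, SOCS1 and SOCS3 did not pass at either dose.

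Among the genes whose log2 CPM (counts scaled for depth) most resembled MX1 over the 12 samples were USP18 (Pearson's r of 0.997), IFI44L (0.997), OAS1 (0.996), PLSCR1 (0.996) and MX2 (0.994). For MX2 they were USP18 (0.996), PLSCR1 (0.996), PARP9 (0.994), MX1 (0.994) and DTX3L (0.994). OAS1 is a synthetase that senses viral RNA, PLSCR1 is a membrane protein with antiviral action, and PARP9 and DTX3L form an ADP-ribosylation and ubiquitin ligase complex. These values describe 12 samples that share doses, lines and libraries, among 19944 genes.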

How the data were processed

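RNA of 12 samples was sequenced after rRNA depletion with a strand-specific kit on the HiseqXTen platform. The submitters' processing notes name Trimmomatic 0.36, HISAT2 2.1.0, StringTie 1.3.3b and GRCh38.p10 without their roles. The authors deposited an estimated count per gene and transcript in whole numbers, and TPM and FPKM values that the authors scaled for length and depth. In all 60099 genes the count was the sum over its transcripts, so an error in dividing reads moves transcripts and leaves the gene sum.

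Groups came from the sample titles. The estimated counts were fitted with edgeR 4.0.16 in R 4.3.3 (TMM, filterByExpr, quasi-likelihood test, Benjamini-Hochberg adjustment over all features), with 6 groups of line set and dose, and dose contrasts averaged over line sets. The SE was derived from the fitted change and its F statistic. The TPM ratio and shares were compared with exact two-sided permutation tests that exchanged doses within line sets, with Python 3.11.15. Counting intervals cover counting error only, and leave out error in dividing reads among transcripts and the spread between replicates. Transcript classes and sequences came from GENCODE release 29, which held 199025 of the 201521 transcripts. The fit was tested on simulated data. Alternatives were DESeq2 1.42.0, RLE scaling, no filter, fewer samples, other covariates, a replicate block, FPKM or counts in place of TPM, log2(TPM + 1), and leaving out each replicate.

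Named genes were MX1, MX2, their transcripts, the called list members with the 4 largest changes, the flanking genes and the 5 most alike genes by r. The members and lists were chosen with earlier results of these data known. Some genes that these rules and lists include are not reported here.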

Additional observations from a re-analysis of the deposited data

Results flagged for a closer look

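The response of MX1 differed between the line sets by the test of the difference itself. On the log2 scale the rise was larger in D-F by 1.45 (SE 0.11, adjusted p = 9.11e-04 from edgeR) at 20 ng/ml and by 1.28 (SE 0.11, adjusted p = 0.00232 from edgeR) at 200 ng/ml. Each line set holds 2 samples per dose, and the control level was lower in D-F (29.9 and 31.1 TPM) than in A-C (66.2 and 71.2 TPM). The contribution of the lower control level to this difference was not tested.

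The level of MX2-201 at 200 ng/ml held 1 sample far from the other 3, namely C2 with 387 TPM beside 201 to 214 TPM, with a gap of 0.931 of the range, above Dixon's 95% limit for a group of 4. Of 27 groups of 4 samples looked at, this was the only one, and chance flags about 1 in 20.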

How the results depend on the processing

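Of 444 values from alternatives to 27 results, 418 kept their direction and their side of the threshold (for counts, stayed within 1.5 times), none changed sign, 8 newly passed the threshold and 18 counts moved further. For the permutation tests, whose p could not reach 0.05 in any alternative, only the direction could have changed. MX1 and MX2 passed against control at both doses in every alternative. The difference between doses passed for MX1 with DESeq2 (0.36), without the filter (0.34) and without C replicate 1 (range 0.30 to 0.39 over the replicates left out, the others not passing), and for MX2 with DESeq2 (0.73). The larger MX2 response in D-F passed with DESeq2 (1.69 at 20 ng/ml and 1.47 at 200 ng/ml) and with the replicate block (1.67 and 1.52, adjusted p = 0.0239 and 0.0209 from edgeR). Replicate numbers did not pair the samples, since deviations of same-numbered samples correlated by -0.045 to 0.056.

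Called MX1 transcripts numbered 8 at each dose in the main analysis, 13 at each dose with DESeq2, 4 at each with only the doses compared, and 3 at 20 ng/ml and 4 at 200 ng/ml with the block. Without 1 replicate they numbered 4 to 7 at 20 ng/ml and 5 to 8 at 200 ng/ml, lowest without A replicate 1 (4 and 5), and 5 without A replicate 2 at either dose and without B replicate 1 at 20 ng/ml. Called MX2 transcripts at 20 ng/ml were 5, and 9 with DESeq2 and 3 with only the doses compared. At 200 ng/ml they were 7, and 4 with only the doses compared, 4 with the block, and 4 to 6 without 1 replicate (4 without D replicate 2 or F replicate 1). Called dynamin superfamily genes at 200 ng/ml were 5, and 3 to 5 without 1 replicate (3 without C replicate 2). The causes were not tested. The 2 samples per letter and low counts of MX2 in the D controls limit precision.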
